A study of Mus musculus with 6 samples.

Results

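Genes for the reception and transcriptional output of Hedgehog signals were followed in mouse embryonic forebrain, in the lateral ganglionic eminence (LGE) at day 16.5 of development. They were chosen by symbol and comprise the ligand gene Shh, the receptor gene Ptch1, the transducer gene Smo, the ligand-binding inhibitor gene Hhip, the coreceptor genes Gas1, Cdon and Boc, and the transcription factor genes Gli1, Gli2 and Gli3. All 10 were found among the 21286 genes of the count table. The design held 3 LGE libraries from wild type littermates and 3 from Dlx1/2 -/- mutants, named for the homeobox factor genes Dlx1 and Dlx2. Both groups were on a mixed background of C57BL/6J, 129S6 and CD1. The LGE is the embryonic forebrain region that yields striatal projection neurons and olfactory bulb interneurons. How the mutant alleles were made, and whether each library came from 1 embryo or a pool, is stated neither in the labels nor in the series text, so p-values measure only the spread between these libraries.

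In the Hedgehog pathway, the secreted protein Shh binds Ptch1, which otherwise holds Smo inactive. Gas1, Cdon and Boc help present the ligand, and Hhip binds and sequesters it. Active Smo works at the primary cilium to change the balance of Gli proteins. Gli2 is mainly an activator, Gli3 is mainly a repressor once it is cleaved, and Gli1 is an activator whose own gene is a target. Ptch1, Gli1 and Hhip are widely used readouts because signalling raises their transcription, while in the neural tube it is known to lower that of Gas1, Cdon and Boc. In the ventral forebrain Shh is made by cells of the medial ganglionic eminence (MGE) and preoptic area, and in the germinal zone beside the ventricle Gli1 is made by ventral stem and progenitor cells.

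Total counts ran from 10711630 in wild type replicate 1 to 16588359 in wild type replicate 3. Dlx1 and Dlx2 were each lower in all 3 mutant libraries, with log2 fold changes of -2.81 and -4.70. Reads of both remained, with 5867 for Dlx1 and 807 for Dlx2 over the mutant libraries, against 36154 and 18316 in wild type. The 16 LGE identity markers summed to 4844 to 5140 CPM (read counts scaled to library size, with TMM factors) in wild type and to 1988 to 2176 in the mutant. Of 15326 genes tested, 24.0% were called in the mutant, 11.2% as higher and 12.8% as lower. A gene was called where the adjusted p of edgeR's quasi-likelihood test (Benjamini-Hochberg) was below 0.05. Library names follow genotype, and genotype cannot be told apart from a batch that these names may hide.

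The readout genes Ptch1, Gli1 and Hhip were lower in mutant LGE, whereas the transducer, a pair of Gli factors and a pair of coreceptors were higher. Most other genes known to respond to Hedgehog signals, described below, were not called. Gli1, Ptch1 and Hhip fell, Smo, Gli2, Gli3, Gas1 and Boc rose, and Cdon did not pass the test. The calls of Hhip, Gas1 and Smo were lost in some fits with a single library left out, as described below. Shh itself had too few reads to be tested. Among the 9 tested genes 5 were therefore higher and 3 lower, beside 11.2% and 12.8% of all genes tested. Hhip passed the filter on low counts only through its wild type libraries, so its place among the tested genes depended on its being higher there. In each of the 9 the wild type and mutant libraries did not overlap, as was so for 41.9% of all genes tested. Their median log2 fold change was 0.31, beside 0.00 over all genes tested. In bulk tissue, fewer cells of a type and less RNA per cell cannot be told apart.

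**Figure D1:**
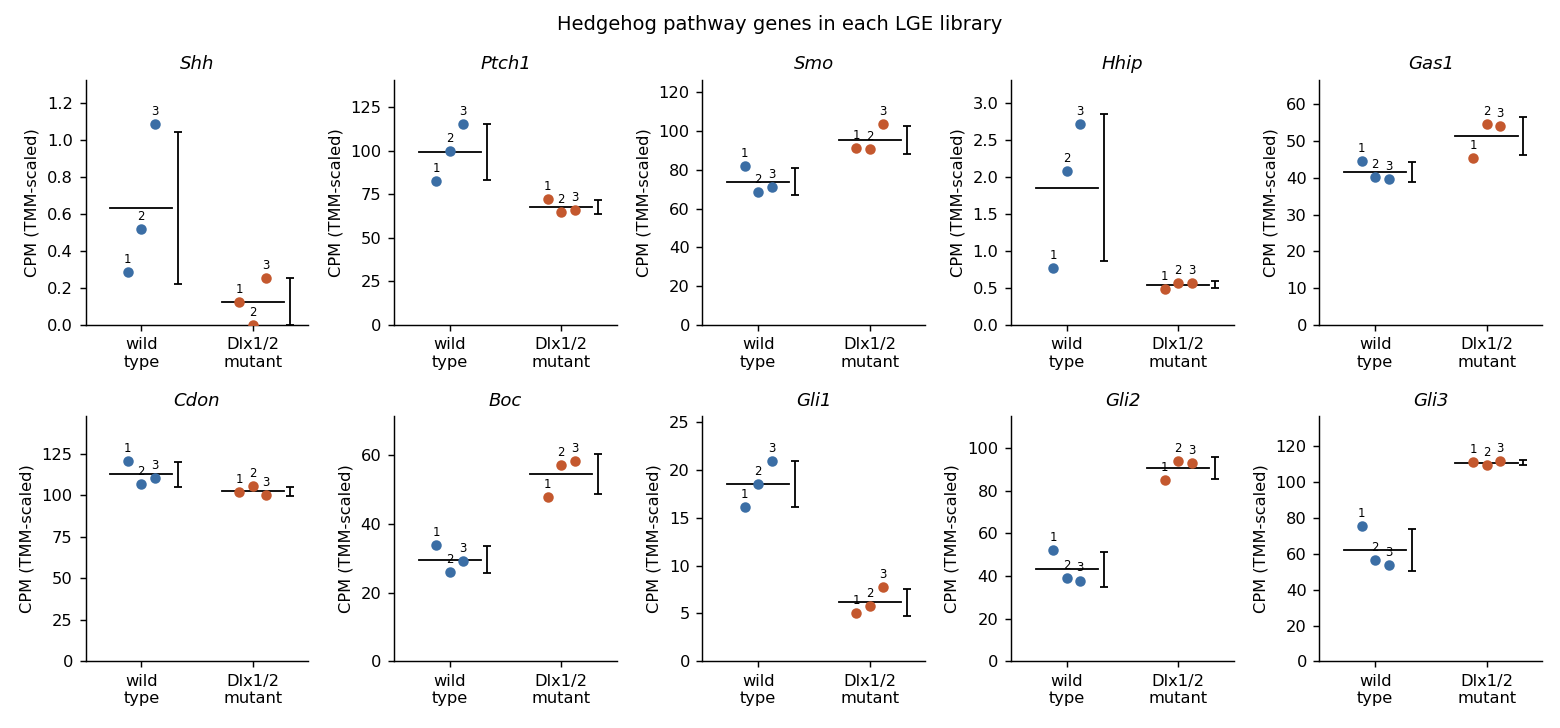
Each panel plots one gene, with the 2 genotypes on the x axis and CPM on the y axis, on a scale of its own that starts at 0. Points are libraries numbered by replicate, the line is the group mean and the bar beside it is 1 SD (n = 3). Gli1 sits between 16.1 and 20.9 CPM in wild type and between 4.998 and 7.74 CPM in the mutant, while Gli2 and Gli3 are higher in every mutant library.

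Shh (ENSMUSG00000002633, GRCm38 chromosome 5, 28456815 to 28467256, minus strand) encodes the ligand. It had 3, 8 and 18 reads in wild type replicates 1 to 3 and 2, 0 and 4 reads in mutant replicates 1 to 3. The ranges of reads overlapped, since the lowest wild type library had fewer reads than the highest mutant library. Scaled to library size, wild type held 0.287, 0.520 and 1.09 CPM and the mutant 0.122, 0 and 0.252 CPM, and the value of 0 allows up to 0.191 CPM. Over the groups, 29 wild type and 6 mutant reads gave a ratio of 5.40 with a 95% Clopper-Pearson interval of 2.20 to 15.9, which covers counting error only. When genes with few reads were kept in the edgeR fit, the adjusted p of Shh was 0.0837, and DESeq2 gave an adjusted p of 0.111. The authors' deposited table gives Shh p = 0.0012, with no word on the test or on adjustment. The other ligand genes were as rare and were not tested either. Ihh was at 0.302 to 0.390 CPM in wild type and 0.366 to 0.629 CPM in the mutant, and Dhh at 0.121 to 0.191 and 0.0610 to 0.253 CPM.

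Ptch1 (ENSMUSG00000021466, chromosome 13, 63508328 to 63573598, minus strand), the receptor and a readout of the pathway, was at 82.7, 99.7 and 115 CPM in wild type and at 72.0, 64.6 and 65.9 CPM in the mutant. All mutant libraries lay below all wild type libraries, with wild type replicate 1 nearest to them. The means were 99.3 ± 16.3 and 67.5 ± 3.97 CPM (SD, n = 3 each), a log2 fold change of -0.56 ± 0.147 (SE) with edgeR adjusted p = 0.0102.

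Smo (ENSMUSG00000001761, chromosome 6, 29735503 to 29761365, plus strand), which encodes the transducer that Ptch1 restrains, moved the other way. It was at 81.8, 68.5 and 71.3 CPM in wild type and at 91.5, 90.9 and 104 CPM in the mutant. The groups did not overlap, and the rise was modest, from 73.9 ± 6.98 to 95.4 ± 7.23 CPM (log2 fold change 0.37 ± 0.099, edgeR adjusted p = 0.0168). Without wild type replicate 2 or 3 its edgeR adjusted p was 0.0578 and 0.0574. The receptor and the transducer can be set against each other within each library, per length, with the FPKM values that the authors deposited (reads per kilobase of gene, scaled to library size). Ptch1 over Smo was 0.381, 0.547 and 0.609 in wild type and 0.296, 0.267 and 0.239 in the mutant. The ratio was lower in every mutant library than in every wild type library, with means of 0.512 ± 0.118 and 0.268 ± 0.0286 (SD, n = 3). An exact two-sided permutation test of the log2 ratio gave p = 0.1, the smallest value that 3 against 3 libraries allow. Ptch1 was lower and Smo higher in every mutant library, so this p was fixed in advance and adds nothing to the results by gene.

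Hhip (ENSMUSG00000064325, chromosome 8, 79965851 to 80058006, minus strand), the inhibitor that binds the ligand, was rare. It had 8, 32 and 45 reads in wild type and 8, 9 and 9 reads in the mutant, or 0.765, 2.08 and 2.72 CPM against 0.488, 0.569 and 0.566 CPM. Wild type replicates 2 and 3 were well above the mutant, whereas wild type replicate 1 was only slightly above it. The log2 fold change was -1.82 ± 0.538 with edgeR adjusted p = 0.0213. The call was lost when any library other than wild type replicate 1 was left out, with edgeR adjusted p from 0.0633 to 0.0760, and without that library the adjusted p was 0.00217.

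The coreceptor genes did not move as one. Boc (ENSMUSG00000022687, chromosome 16, 44485049 to 44558897, minus strand), a transmembrane protein of the immunoglobulin superfamily, was at 33.8, 26.1 and 29.2 CPM in wild type and at 47.8, 57.2 and 58.5 CPM in the mutant. The lowest mutant library was well above the highest wild type library, and the log2 fold change was 0.88 ± 0.142 (edgeR adjusted p = 0.00114). Gas1 (ENSMUSG00000052957, chromosome 13, 60174405 to 60177365, minus strand), a lipid-anchored surface protein, was at 44.6, 40.2 and 39.7 CPM against 45.3, 54.7 and 53.96 CPM. Wild type replicate 1 and mutant replicate 1 were nearly equal, and the log2 fold change was 0.31 ± 0.102 (edgeR adjusted p = 0.0431). That call was lost without wild type replicate 2 or 3 or mutant replicate 2 or 3, with edgeR adjusted p from 0.118 to 0.140. Cdon (ENSMUSG00000038119, chromosome 9, 35421128 to 35507652, plus strand), the closest relative of Boc, was at 121, 106 and 111 CPM against 102, 105 and 100.005 CPM. Its mutant values lay just below its wild type values, yet the log2 fold change of -0.14 ± 0.059 did not pass (edgeR adjusted p = 0.154).

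The Gli genes, which encode zinc finger transcription factors, split. Gli1 (ENSMUSG00000025407, chromosome 10, 127329882 to 127341974, minus strand), the activator whose own gene is a target, was at 16.1, 18.5 and 20.9 CPM in wild type and at 4.998, 5.76 and 7.74 CPM in the mutant. The highest mutant library had less than the lowest wild type library, and the fall was 3.01-fold (log2 fold change -1.59 ± 0.215, edgeR adjusted p = 4.31e-04). Gli2 (ENSMUSG00000048402, chromosome 1, 118834132 to 119053619, minus strand) was at 52.3, 38.98 and 37.9 CPM in wild type and at 84.9, 94.1 and 92.8 CPM in the mutant. It rose 2.11-fold (log2 fold change 1.08 ± 0.156, edgeR adjusted p = 5.30e-04). Gli3 (ENSMUSG00000021318, chromosome 13, 15463235 to 15730026, plus strand) was at 75.4, 56.9 and 53.7 CPM in wild type and at 111, 109.6 and 112 CPM in the mutant. It rose 1.80-fold (log2 fold change 0.85 ± 0.152, edgeR adjusted p = 0.0016). The mutant libraries were close to each other for Gli3, while wild type replicate 1 stood above the other wild type libraries for both Gli2 and Gli3. Leaving out each library in turn kept the direction and the call of Ptch1, Gli1, Gli2, Gli3 and Boc.

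**Figure D2:**
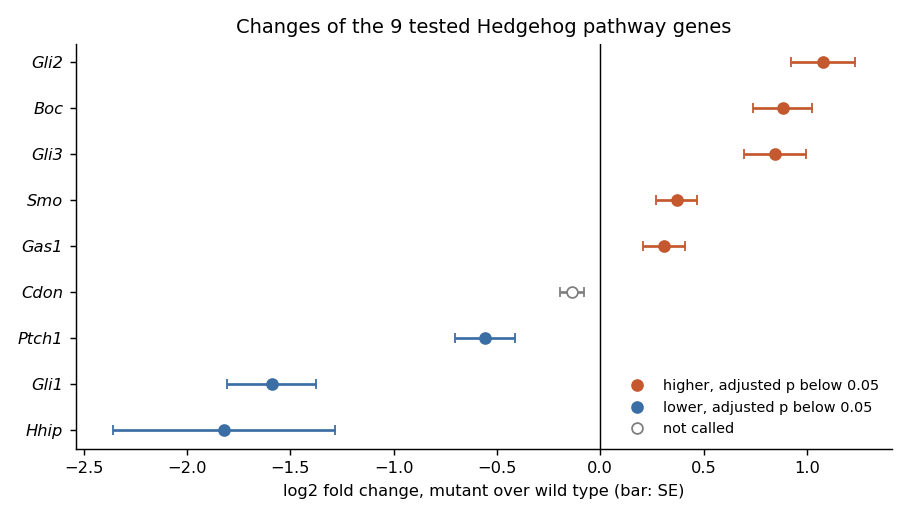
Points give the log2 fold change of mutant over wild type on the x axis for each of the 9 tested genes on the y axis, and bars are 1 SE. Filled points passed an edgeR adjusted p below 0.05; Gli2 is the highest at 1.08, Hhip the lowest at -1.82, and Cdon at -0.14 is not called.

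The make-up of Gli transcripts differed between the genotypes in every library. Per length, Gli1 took 23.3%, 31.8% and 35.6% of the summed FPKM of Gli1, Gli2 and Gli3 in wild type and 5.76%, 6.29% and 8.25% in the mutant. The mean share fell from 30.2% ± 6.27 to 6.76% ± 1.31 (SD, n = 3), and an exact two-sided permutation test gave p = 0.1, the smallest it allows. Gli1 was lower and Gli2 and Gli3 higher in every mutant library, so this p was fixed in advance and adds nothing to the results by gene. Gli2 took 34.6% ± 3.02 in wild type and 49.9% ± 1.295 in the mutant, and Gli3 took 35.2% ± 3.27 and 43.3% ± 1.76. With these lengths Gli1 had the smallest share in wild type replicates 1 and 2 and the largest in replicate 3, and the smallest in every mutant library. The lengths behind the deposited FPKM were not those of GENCODE M21 for all genes, being 0.734 times its exon length for Gli1 and 1.07 and 1.08 times for Gli2 and Gli3. With the GENCODE lengths the Gli1 share was 22.9% ± 5.202 and 4.73% ± 0.939. Wild type Gli1 was then at 3.70 ± 0.488 CPM per kilobase, below Gli2 (6.27 ± 1.17) and Gli3 (6.46 ± 1.223).

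**Figure D3:**
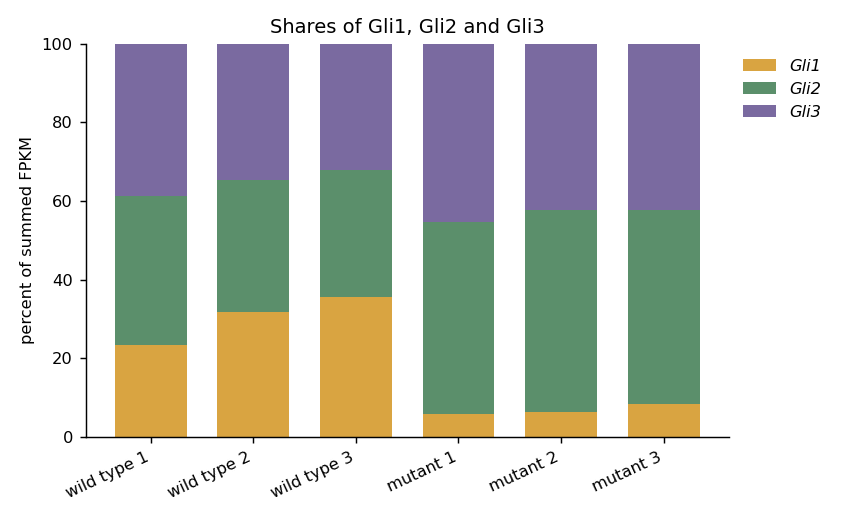
Each bar is a library, and the colours give the percent of the summed FPKM of Gli1, Gli2 and Gli3 (y axis) that each gene took. The Gli1 part is 23.3% to 35.6% in wild type and 5.76% to 8.25% in the mutant.

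Across the pathway, levels per length ordered the genes differently in the genotypes. In wild type, Gas1 (13.9 ± 0.719 FPKM) and Smo (11.6 ± 0.946 FPKM) were highest, followed by Cdon at 9.02 ± 0.478 FPKM. Gli3, Ptch1, Gli2, Boc and Gli1 came next between 5.91 and 5.004 FPKM, and with these lengths the neighbours did not differ beyond their spread. In the mutant, Gas1 (17.5 ± 1.69 FPKM) and Smo (15.3 ± 1.06 FPKM) again led, their library ranges overlapping, and Gli2 followed at 12.5 ± 0.636 FPKM. Gli3 and Boc came next at 10.8 ± 0.110 and 9.41 ± 0.956 FPKM, the range of Boc overlapping that of Cdon. Below Cdon, Ptch1 at 4.08 ± 0.258 FPKM and Gli1 at 1.69 ± 0.377 FPKM followed. Hhip and Shh were last in both genotypes, at 0.360 and 0.221 FPKM in wild type and 0.106 and 0.0439 FPKM in the mutant. The places of several genes depended on length. By GENCODE length, Gli1 lay apart from Ptch1 in both genotypes, at 3.70 and 6.998 CPM per kilobase in wild type and 1.23 and 4.76 in the mutant. For Cdon the length behind the FPKM was 1.603 times that of GENCODE M21, and with the GENCODE length its wild type level per kilobase (14.6) was near that of Gas1 (14.0). In the mutant, Cdon (13.3 ± 0.356) was then level with Gli2 (13.2 ± 0.725). Mutant Boc (12.2 ± 1.305) was then above Gli3 (11.6 ± 0.133), within the spread of Boc. Wild type Shh (0.222 ± 0.144) and Hhip (0.204 ± 0.110) also changed places, within their spread.

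RefSeq promoter sequences on GRCm38.p6 were matched for 7 of the 10 genes, Ptch1, Smo, Gli2, Gli3, Hhip, Gas1 and Cdon, and not for Shh, Gli1 and Boc. The 250 bases before the start site are shown for Gli2 and Gli3, which rose together, and for Ptch1, which fell, because these sequences shared a high content of CG dinucleotides. Letters run 5′ to 3′ along the gene and capitals mark each CG.
Gli2, chr1:119053620-119053869, minus strand: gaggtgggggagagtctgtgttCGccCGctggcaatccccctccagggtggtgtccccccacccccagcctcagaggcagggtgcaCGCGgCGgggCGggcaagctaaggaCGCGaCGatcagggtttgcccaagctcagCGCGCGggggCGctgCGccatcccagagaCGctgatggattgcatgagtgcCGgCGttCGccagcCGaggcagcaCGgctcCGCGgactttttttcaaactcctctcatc
Gli3, chr13:15463473-15463722, plus strand: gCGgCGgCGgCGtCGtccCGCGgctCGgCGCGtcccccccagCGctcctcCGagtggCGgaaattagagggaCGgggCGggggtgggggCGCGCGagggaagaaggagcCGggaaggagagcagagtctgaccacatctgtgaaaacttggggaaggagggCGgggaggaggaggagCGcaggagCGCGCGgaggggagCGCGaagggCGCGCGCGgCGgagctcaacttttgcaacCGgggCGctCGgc
Ptch1, chr13:63565736-63565985, minus strand: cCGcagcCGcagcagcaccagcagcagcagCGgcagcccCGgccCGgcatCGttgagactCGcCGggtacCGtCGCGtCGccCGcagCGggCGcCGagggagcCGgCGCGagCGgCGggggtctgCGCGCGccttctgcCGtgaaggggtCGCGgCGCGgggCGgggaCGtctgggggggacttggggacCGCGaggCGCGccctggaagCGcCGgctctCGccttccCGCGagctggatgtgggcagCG
They held 22, 34 and 41 CG dinucleotides, beside a median of 6 over the 32851 RefSeq windows, of which 85.2%, 96.5% and 98.9% held fewer. These sequences were picked with that content known, though not strictly by it, since Hhip, which is not shown, held more than Gli2. The contrast with the median follows from the choice. The same stretch held 28 in Hhip, 15 in Smo, 10 in Gas1 and 1 in Cdon, so the feature was found in genes that rose and in genes that fell. The Ptch1 and Cdon windows belong to start sites that lie 7863 and 30948 bases inside the GENCODE gene. The GLI motif GACCACCCA and the homeodomain motif TAATTA were searched on both strands in windows of 300 bases, from 250 before to 50 after the start. Neither was found in the 7 windows, and they stood in 0.253% and 5.29% of all windows. With up to 1 mismatch, a rule chosen after that search, the GLI motif was in 0 of the 7 windows and in 6.74% of all windows. No match says only that these letters are not in this window.

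Other genes of the pathway were taken from 4 lists. From the list of other ligands, ligand release and binding, single genes are described, with no count or median over the list, which was shortened after its values were seen. Gpc4, a cell surface heparan sulfate proteoglycan, rose from 21.6 ± 3.08 to 62.8 ± 2.33 CPM (log2 fold change 1.55), and Disp2, a relative of the ligand exporter Disp1, from 61.5 ± 6.34 to 96.0 ± 5.16 CPM. The exporter gene Disp1 itself was at 22.1 ± 1.08 and 23.2 ± 1.60 CPM with edgeR adjusted p = 0.626. The secreted Scube proteins help release the lipid-bearing ligand, and 2 of their 3 genes fell. Scube1 fell from 94.2 ± 10.1 to 33.6 ± 4.15 CPM (log2 fold change -1.49) and Scube3 from 49.2 ± 5.74 to 28.6 ± 1.59 CPM (-0.79). Scube2 was at 2.30 ± 0.624 and 3.76 ± 0.444 CPM and did not pass (edgeR adjusted p = 0.0686).

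Among regulators of Smo and Gli proteins, 6 of 26 (23.1%) rose and 4 (15.4%) fell, beside 11.2% and 12.8% of all genes tested (median 0.04). Btrc, a substrate receptor of the ubiquitin ligase that starts Gli processing, rose from 81.4 ± 2.10 to 126 ± 1.68 CPM (log2 fold change 0.63, edgeR adjusted p = 6.26e-05). Gsk3b, a kinase that phosphorylates Gli proteins, rose by 0.36 on the log2 scale, and Kif7, a ciliary kinesin that acts on them, by 0.32. The edgeR call of Kif7 was lost without wild type replicate 2 (adjusted p = 0.0526) or mutant replicate 2 (0.0585). Gpr161, a ciliary receptor that restrains the pathway, was at 169.8 ± 3.26 and 123 ± 24.5 CPM. It was called lower (edgeR adjusted p = 0.0282), but not when any library other than mutant replicate 1 was left out (0.0612 to 0.0877). Evc2, a Smo partner at the base of the cilium, fell from 14.8 ± 0.779 to 10.7 ± 0.581 CPM. Sufu, the main Gli-binding inhibitor, was at 77.7 ± 5.16 and 69.6 ± 6.08 CPM and did not pass (edgeR adjusted p = 0.213). Zic1, a zinc finger factor related to the Gli proteins, had a log2 fold change of -0.71 (edgeR adjusted p = 0.0411), a call that was lost without wild type replicate 2 or 3 or mutant replicate 1 or 3, with edgeR adjusted p from 0.0502 to 0.127. With single libraries left out, 1 to 3 regulators were lower (1 without wild type replicate 2 or 3 or mutant replicate 3, 2 without mutant replicate 1 or 2), and 3 were higher without mutant replicate 2. Of all genes, those fits called 1211 to 1626 as higher and 1416 to 1956 as lower, and the full fit 1715 and 1958.

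Genes of the primary cilium, the organelle through which Smo signals, were called about as often as all genes. Of 20 tested, 1 rose and 4 fell, beside 24.0% of all genes called in either direction (median -0.02). Rpgrip1l and Tctn1, parts of the transition zone at the ciliary base, fell by 0.45 and by 0.37 on the log2 scale. Arl13b, a small GTPase of the ciliary membrane, fell by 0.33, and Kif3a, a motor subunit for transport in the cilium, fell by 0.29. The edgeR calls of Arl13b (adjusted p = 0.0536 without wild type replicate 2 and 0.0539 without mutant replicate 2) and Kif3a (0.0569 without mutant replicate 3) rested on those libraries. Dync2h1, a motor of return transport, was the gene that rose (0.29, edgeR adjusted p = 0.0468). It lost the call when any library other than wild type replicate 1 was left out, with edgeR adjusted p from 0.0694 to 0.127.

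Of 15 tested genes known to respond to Hedgehog signals in some tissues, 2 rose and 3 fell, beside 11.2% and 12.8% of all genes tested. The log2 fold change was negative in 12 of the 15, most of them not called, and in 7600 of the 15326 genes tested (median -0.12). Igfbp3, a secreted binder of insulin-like growth factors, fell from 7.95 ± 0.879 to 4.28 ± 0.745 CPM. Ccnd2, a cyclin gene, fell by 0.43 on the log2 scale and Rab34, a GTPase gene needed for cilia, fell by 0.38. Olig2, a helix-loop-helix factor of ventral progenitors and oligodendrocyte precursors, rose from 41.0 ± 5.26 to 70.5 ± 5.88 CPM, and Sfrp1, a secreted Wnt inhibitor, by 0.49 on the log2 scale. Ccnd1 and Mycn, growth genes that Gli proteins drive in cerebellar precursors, did not pass, with log2 fold changes of -0.20 and -0.12 (edgeR adjusted p = 0.159 and 0.350).

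**Figure D4:**
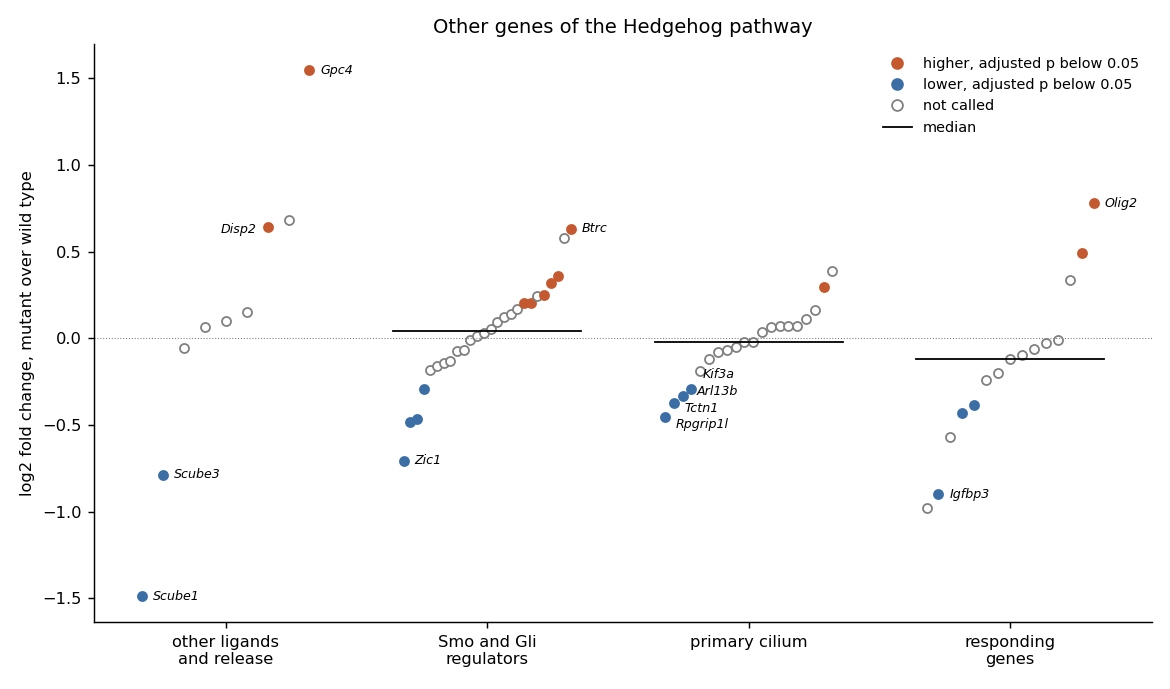
Points are tested genes of 4 lists along the x axis, sorted within a list, with the log2 fold change of mutant over wild type on the y axis. Filled points passed an edgeR adjusted p below 0.05, lines are medians of the 3 right-hand lists between -0.12 and 0.04, and Gpc4 at 1.55 and Scube1 at -1.49 stand farthest from 0.

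Markers of radial glia, the progenitor cells of the germinal zone, were higher along with Smo, Gli2, Gli3 and Boc. Of 17 tested radial glia markers 12 rose and 0 fell by edgeR adjusted p, beside 11.2% and 12.8% of all genes tested. At unadjusted p below 0.05 there was 1 lower marker, and by DESeq2 adjusted p 14 rose and 0 fell. All 18 markers together were at 3416 to 3847 CPM in wild type and at 5392 to 5511 CPM in the mutant, and none was at 0 in any library. Within wild type, replicate 1 had the highest sum, and it also had the highest Smo, Gli2, Gli3, Gas1 and Boc and the lowest Ptch1, Gli1, Hhip and Shh. Cdon was highest in that library too, although its mutant values lay below those of wild type. The most abundant radial glia markers were Ptprz1, a receptor phosphatase gene, Fabp7, a lipid carrier gene, and Nes, which encodes the intermediate filament nestin. Ptprz1 rose from 619 ± 33.9 to 1073 ± 35.4 CPM and Nes from 354 ± 33.98 to 483 ± 45.7 CPM. Fabp7 was at 549.6 ± 23.5 and 653 ± 57.8 CPM, and its call (edgeR adjusted p = 0.0427) was lost without wild type replicate 2 or 3 or mutant replicate 1 or 2 (0.0879 to 0.129). Notch1, a receptor gene, and Hes5, a target of Notch signalling, rose by 1.12 and 1.81 on the log2 scale, and Sox9, a progenitor transcription factor gene, by 0.88. Slc1a3, a glial glutamate transporter, was at 200.4 ± 4.29 and 176 ± 15.6 CPM, the lower marker, and did not pass after adjustment (edgeR adjusted p = 0.0748, and 0.0424 without mutant replicate 2). Of 20 cell cycle genes tested, 2 (10%) rose and 0 fell by edgeR adjusted p, beside 11.2% and 12.8% of all genes tested. Together the cell cycle genes were at 2203 to 2877 CPM in wild type and 2507 to 2724 CPM in the mutant, ranges that overlapped. Markers of other regions, like those of radial glia, were higher in the mutant. The 12 markers of hypothalamus and diencephalon found in the table summed to 1.75 to 2.66 CPM in wild type and to 439.8 to 505 CPM in the mutant. Nearly all of the mutant sum was Otp, a homeobox factor gene of the hypothalamus, at 0.558 ± 0.354 and 446 ± 31.9 CPM, while Foxb1 and Nr5a1 were at 0 in every wild type library and at most 0.0422 CPM on average in the mutant. Of 5 tested 4 rose and 0 fell. With wild type sums this low, most of these 5 could pass the filter of about 0.634 CPM only with mutant libraries. That count was therefore partly fixed in advance. Markers of the pallium, the dorsal forebrain, summed to 60.6 to 111 and 185 to 271 CPM, and of 9 tested 5 rose and 0 fell. Those of choroid plexus and ependyma summed to 20.6 to 26.5 and 45.5 to 50.3 CPM, with 1 of 4 tested higher and 1 lower. These counts stand beside 11.2% higher and 12.8% lower of all genes tested. The part of these cells in the changes of the Hedgehog genes was not tested.

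Nkx2-1 and Lhx8, transcription factor genes of the MGE, the neighbouring region where Shh is made, were looked at after their values had been seen. Nkx2-1 was at 37.7, 73.8 and 114 CPM in wild type and at 43.9, 106 and 61.7 CPM in the mutant. Its ranges overlapped (edgeR adjusted p = 0.897, with the sign of the log2 fold change turned to 0.33 without wild type replicate 3 and to 0.16 without mutant replicate 1). Lhx8 was at 6.60, 8.97 and 16.1 CPM in wild type and at 1.46, 1.65 and 1.38 CPM in the mutant (log2 fold change -2.83, edgeR adjusted p = 8.65e-04). Lhx6, which migrating MGE-derived interneurons also make, was at 145 to 220 CPM and 144 to 161 CPM and did not pass (edgeR adjusted p = 0.341). Wild type replicate 3 was the highest wild type library for Shh, Ptch1, Gli1, Hhip, Nkx2-1, Lhx6 and Lhx8, and replicate 1 the lowest. Within the mutant the highest library differed by gene, being replicate 1 for Ptch1, replicate 2 for Nkx2-1, Hhip and Lhx8, and replicate 3 for Gli1 and Shh. Of the 13 MGE and ventral markers 4 rose and 4 fell (30.8% each), beside 11.2% and 12.8% of all genes tested. Among them Sst and Npy, neuropeptide genes of interneurons, and Sox6, a factor of migrating interneurons, rose by 3.68, 2.10 and 1.13 on the log2 scale, while Maf, another interneuron factor, and Erbb4, a neuregulin receptor gene, fell by 2.08 and by 1.82. Together the 13 were at 640 to 817 CPM in wild type and 824 to 942 CPM in the mutant, with none at 0 in any library. The share of MGE tissue in each library was not measured, and its part in these results was not tested.

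**Figure D5:**
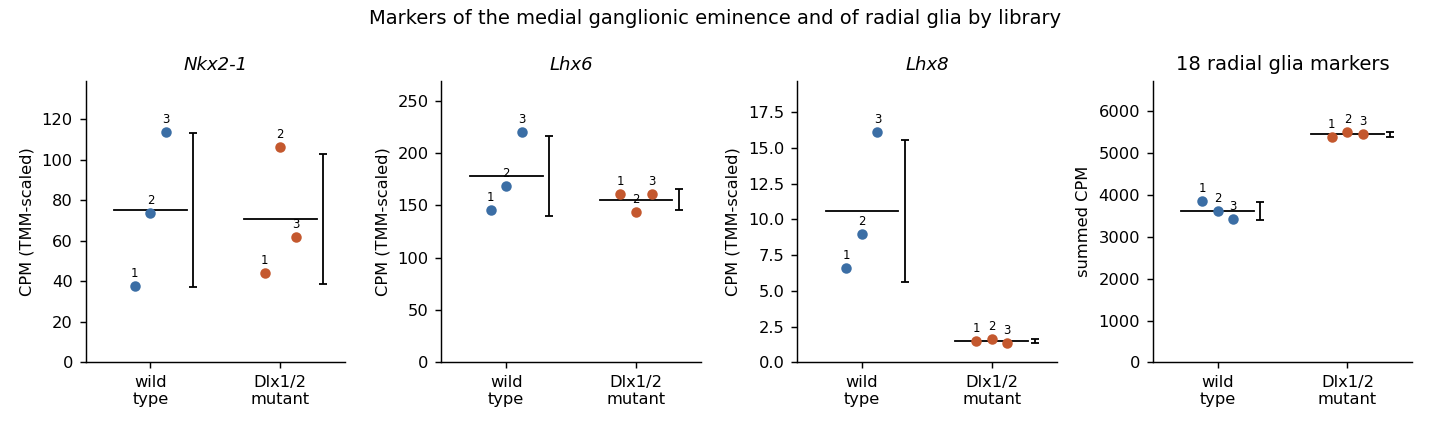
Panels give CPM (y axis) of Nkx2-1, Lhx6 and Lhx8 and the summed CPM of 18 radial glia markers by genotype (x axis), with libraries as numbered points, the mean as a line and 1 SD as a bar (n = 3). Nkx2-1 overlaps between the groups, Lhx8 is at most 1.65 CPM in the mutant, and the radial glia sum is 3416 to 3847 in wild type and 5392 to 5511 in the mutant.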

How the data were processed

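RNA of 6 LGE libraries was sequenced, 3 wild type and 3 Dlx1/2 mutant. Builds GRCm38.p4 and mm10, the aligner HISAT2 2.0.4, StringTie 1.3.0 and edgeR are listed in the submitters' processing notes with no role stated. The authors deposited whole-number read counts per gene, FPKM values and a p-value per gene, per the file headers. The sources used here do not give the counter, the annotation or whether strand was used. The deposited FPKM were used only to compare genes with each other, and the authors' p-value only where named.

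The deposited counts were tested with edgeR 4.0.16 in R 4.3.3: filterByExpr by group, TMM scaling, glmQLFit and glmQLFTest, two-sided, Benjamini-Hochberg over all 15326 genes tested, threshold 0.05. The filter asked for about 0.634 CPM. SEs come from log2 CPM with 0.5 added to each count. A count of 0 was given the limit of 3 counts. Gene positions are from GENCODE M21. The scripts were tested on simulated counts.

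The 10 genes and the 17 lists (236 entries, 232 found) were chosen with earlier results of these data known. Named were the 10 genes; from pathway lists, called genes of at least 1.5-fold or otherwise the 4 of smallest adjusted p; from the marker lists of radial glia and MGE, the 3 most abundant and 3 of smallest adjusted p. Other called or well-known pathway genes (Kif7, Gsk3b, Gpr161, Evc2, Sufu, Disp1, Scube2, Dync2h1, Ccnd1, Ccnd2, Mycn, Rab34, Sfrp1, Ihh, Dhh), Slc1a3, Nkx2-1, Lhx8, Otp, Foxb1 and Nr5a1 were named after their values were seen. Alternatives were DESeq2 1.42.0, RLE scaling, no filter on low counts, a replicate block, single libraries left out and adjusted p below 0.01, and for the ratios CPM and, added later, GENCODE lengths. A gene taken out of the ligand list after its values were seen is not reported here.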

Additional observations from a re-analysis of the deposited data

How the results depend on the processing

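None of the 9 tested Hedgehog genes changed direction under the alternatives run, and RLE scaling and DESeq2 changed none of their calls. Leaving out single libraries gave 3 to 5 higher and 2 to 3 lower members, 3 to 5 higher and 1 to 3 lower regulators of Smo and Gli, and 0 to 1 higher and 3 to 5 lower cilium genes. Fewer libraries were fitted there, and of all genes 1211 to 1626 were higher and 1416 to 1956 lower. The fit of all 6 libraries had 1715 and 1958. At adjusted p below 0.01, 875 of all genes were higher and 1116 lower. Of the members 3 were higher (Gli2, Gli3, Boc) and 1 lower (Gli1), of the regulators 3 and 1, and of the cilium genes 0 and 2. Without the low-count filter 0 cilium genes were higher (edgeR; 2 at unadjusted p below 0.05, and 1 with DESeq2), and Gas1 had adjusted p = 0.0549. That edgeR fit called 1603 of all genes as higher and 1903 as lower. The labels do not say that equal numbers pair libraries, and the numbers were not taken as pairs. Same-numbered libraries did not deviate together (r = -0.176, 0.0426 and -0.168 for replicates 1 to 3, not each best with its own number). With 3 libraries per group these correlations cannot show whether libraries shared a litter or a preparation. With the replicate block in the edgeR fit, 1223 of all genes were higher and 1458 lower. In that fit 3 regulators were higher and 2 lower, 2 cilium genes were lower, and Gas1 (adjusted p = 0.107), Zic1 (0.0551), Kif7 (0.0551), Arl13b (0.0516) and Kif3a (0.0531) lost their calls. The cause was not tested. With the block, exact sign-flip tests of the 2 ratios gave p = 0.25, the smallest that 3 pairs allow. That outcome too was fixed in advance by the separation of the groups for each gene. The Gli1 share fell by 18.2 to 26.9 percentage points over lengths and left-out libraries, and by 12.4 in CPM, which does not divide by gene length. The log2 fold change of Nkx2-1 (-0.10) ranged from -0.52 without mutant replicate 2 to 0.33 without wild type replicate 3 over single left-out libraries and was 0.16 without mutant replicate 1, with no call in any of these fits. Shh and Hhip rest on few reads, which limits what depth can show.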

Other observations

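Over the 6 libraries, log2 CPM of Gli1 was most like that of Usp4 (Pearson's r = 0.9998), Celf5 (0.9975) and Isyna1 (0.9974), among 10974 tested genes with a mean of at least 5 CPM. Usp4, a deubiquitinase gene, changed far less than Gli1, with a log2 fold change of -0.17. Celf5, an RNA-binding protein gene, and Isyna1, an inositol synthesis enzyme gene, had log2 fold changes of -0.55 and -0.50. Ptch1 was most like Abca5 (0.9948), a lipid transporter gene, Scg2 (0.9947), a secretory granule protein gene, and Lonrf2 (0.9937), with log2 fold changes of -0.38, -1.20 and -0.50. With 2 groups of 3 libraries such values mostly reflect the difference between groups, and 545 genes had r above 0.95 with Gli1 and 204 with Ptch1.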
